A study of Rattus norvegicus with 4 samples.

Results

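The VEGF system was examined as 10 genes: the ligand genes Vegfa, Vegfb, Vegfc, Vegfd and Pgf, the receptor genes Flt1, Kdr and Flt4, and the co-receptor genes Nrp1 and Nrp2. They were taken by symbol from a table of 23608 gene entries, and all 10 were present and passed the expression minimum (at least 1 CPM in at least 1 library, CPM being read counts scaled to a common library size) that 13634 genes passed. The samples were wild-type rat microvessels, taken as primary vascular cells from connective tissue under the skin. There were 4 groups of 1 library each, from cells on a soft or a stiff extracellular matrix, either left without inhibitor or given A83-01. This compound blocks the kinase of TGF-beta type I receptors. The labels give no dose, no stiffness value, no animal age or strain and no culture or preparation identity, and the cells are a mixture in which the source cell of a transcript is not known. Both stiff libraries carry a different name form from both soft libraries, so stiffness and a separate preparation cannot be told apart.

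VEGF-A is the main growth and permeability factor of blood vessel endothelium and signals through VEGFR2, the product of Kdr. VEGFR1, the product of Flt1, binds VEGF-A, VEGF-B and placental growth factor (Pgf) tightly and signals weakly, acting largely as a trap. VEGF-C and VEGF-D are made as precursors and act through VEGFR3 (Flt4), and fully processed VEGF-C also acts through VEGFR2. The neuropilins Nrp1 and Nrp2 have no kinase of their own, present VEGFs to the receptors and also bind class 3 semaphorins. Mural cells and fibroblasts around a vessel are sources of ligand, and the receptors are concentrated on endothelium.

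The promoters of 4 members on which the results turn are shown, with 1 kind of motif marked in each. They are RefSeq sequences of build GRCr8, which differs from the build of the counts, and all 10 members had an entry. Capitals mark GC boxes (GGGCGG or its complement, a site for SP-family factors) in the bases just upstream of the start for Vegfa (chr9:22452604-22452853, plus strand), Pgf (chr6:110557748-110557997, minus strand) and Kdr (chr14:32571813-32572030, plus strand). The Kdr stretch ends at the outermost start of its gene model, upstream of the start in the promoter table. For Vegfd, whose gene model also starts further upstream, 30 bases are shown (chrX:33739981-33740010, minus strand). The letters of a TATA box (TATAAA) are in capitals there, and their first base lies 106 bases before the start.
Vegfa: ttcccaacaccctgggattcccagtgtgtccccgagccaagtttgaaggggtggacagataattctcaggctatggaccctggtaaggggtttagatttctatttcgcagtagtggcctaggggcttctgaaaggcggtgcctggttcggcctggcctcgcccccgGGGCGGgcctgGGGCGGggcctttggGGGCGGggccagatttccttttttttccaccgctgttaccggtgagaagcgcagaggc
Pgf: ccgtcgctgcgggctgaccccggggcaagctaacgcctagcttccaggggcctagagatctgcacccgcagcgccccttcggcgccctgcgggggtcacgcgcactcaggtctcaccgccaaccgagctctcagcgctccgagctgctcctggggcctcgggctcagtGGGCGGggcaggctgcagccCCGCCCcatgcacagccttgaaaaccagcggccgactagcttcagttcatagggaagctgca
Kdr: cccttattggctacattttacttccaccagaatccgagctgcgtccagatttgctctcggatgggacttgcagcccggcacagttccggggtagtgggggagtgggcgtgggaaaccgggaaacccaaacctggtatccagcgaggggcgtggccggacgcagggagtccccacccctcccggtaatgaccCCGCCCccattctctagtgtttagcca
Vegfd: atacctcctcctTATAAAgcggctagaact
In the 250 bases upstream, searched on both strands, Vegfa held 3 GC boxes at its main start and 0 at its second entry, Pgf 2, Kdr 1 and Vegfd 0. A GC box occurred in 30.5% of all 33465 rat promoter entries and TATAAA in 12.9%. Among the members, TATAAA was found 1 time each in Vegfd and Flt1. Outside these 4, Vegfb held 4 GC boxes, Flt1 and Flt4 held 3 each, Vegfc 2, and Nrp1 and Nrp2 none. The core of the hypoxia response element (ACGTG or GCGTG, in 36.7% of entries) was found 2 times in Kdr, once each in Vegfb, Pgf, Flt1, Nrp1 and Nrp2, and in neither Vegfa entry. The ETS core GGAA, in 93.2% of entries, occurred 1 to 4 times in each member's entries. These hypoxia and ETS cores are not marked above. The palindromic SMAD site GTCTAGAC (0.173% of entries) was in none of the members' windows. Such matches describe letters in a short window and show no binding.

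Total counts per library ran from 32271844 to 33416200, and factors of the trimmed mean of M-values (TMM) scaling were 1.03 and 1.04 on soft matrix, 0.876 on stiff and 1.07 on stiff with A83-01. Each value below is from 1 library, so no pair of libraries has a replicate check: its ratio compares those libraries, not the conditions, and the 95% interval given in brackets covers counting error only. With the library total alone as the scale, in place of TMM, the median of all genes shifted to −0.23 (log2) in stiff against soft, and the higher share of genes past 2-fold went from 38.3% to 24.4%. In stiff with A83-01 against stiff the median shifted to 0.31 and that share went from 63.6% to 81%. Members had between 427 and 12275 counts in a library. A test was possible over all 4 libraries in an additive model, 2 stiff against 2 soft or 2 inhibited against 2 not, with 1 residual degree of freedom. In simulated data with 200 genes changed 4-fold, this fit called 63 unchanged genes for stiffness and 53 for the inhibitor. That is more than its nominal rate, so its adjusted p-values may be too small. The labels do not say that the libraries come from separate cultures, and the spread behind the p-values may be technical. In the additive fit, a response to 1 factor that depends on the other also counts as spread. Vegfa, whose A83-01 log2 ratios on stiff and soft matrix differed by −1.40, had the largest stiffness SE among the members (0.367). Defining endothelial genes were present in every library, with VE-cadherin, Cdh5, between 730 and 1325 CPM. Of the keratinocyte genes, Krt5, Krt14 and Epcam had no counts in any library, while Krt1 had 0 to 25 counts and Krt10 had 54 to 90.

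Of the VEGF genes, Vegfd, Vegfa and Kdr stood furthest below their soft level on stiff matrix. Without inhibitor 8 members were lower in stiff than soft beyond counting error, against 33.3% of all genes. The ratios of Vegfb and Nrp1 (1.03-fold lower, 0.996 to 1.06) did not exclude equality. With TMM all 10 lay below 1 at any size, against 49.9% of all genes. All 10 did so under every scaling tried, but with total-count scaling or FPKM the median log2 ratio of all genes was itself −0.23. The members' median log2 ratio was −0.24 and that of all genes 0.00. Of the 10, 2 were at least 2-fold lower (Vegfd and Vegfa) and 0 at least 2-fold higher, where 8.58% and 5.33% of all genes were. With A83-01 in both libraries 7 members were lower, each beyond counting error, and 3 higher. Of all genes 49.1% were lower at any size and 33.6% beyond counting error. The members' median in this pair was −0.49 against 0.01 for all genes. The same 2 genes were at least 2-fold lower, against 6.72% of all genes lower and 6.88% higher. Both stiff libraries lay below both soft libraries in 5 members (Vegfa, Vegfc, Vegfd, Kdr and Nrp2) and above them in 0, a pattern found in 27.1% and 26.5% of all genes.

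**Figure D1:**
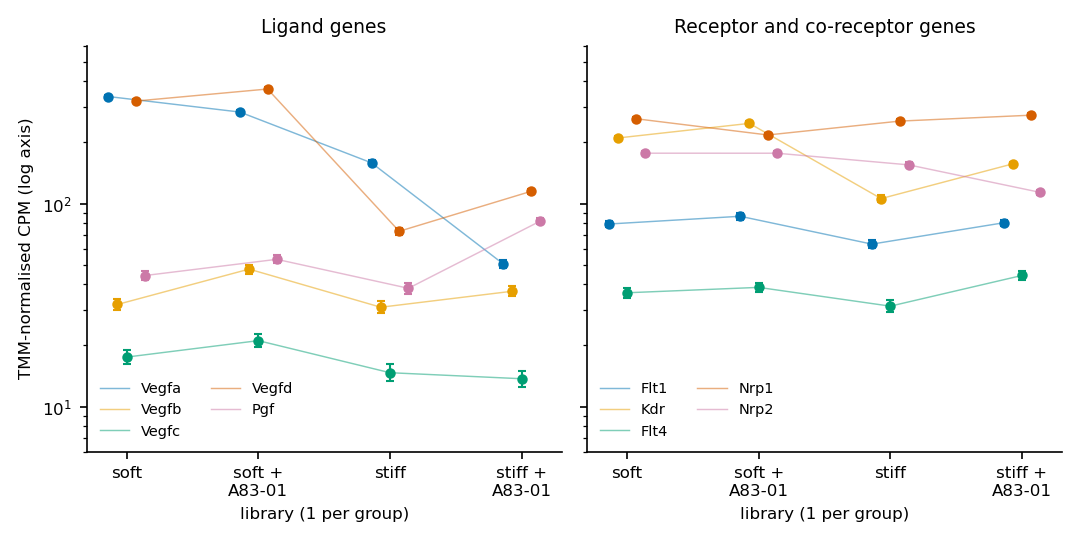
CPM of the 5 ligand genes (left) and the 5 receptor and co-receptor genes (right) in each library, on a log axis. Points are single libraries, bars are exact 95% Poisson intervals for counting error, and thin lines only join points of a gene. Vegfd drops from 319.6 and 366 CPM on soft matrix to 73.0 and 115 on stiff, and Vegfa is lowest, at 50.4 CPM, in stiff with A83-01.

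Over all 4 libraries, the quasi-likelihood test of edgeR, adjusted over all genes by Benjamini-Hochberg, called 1 of the 10 members lower on stiff matrix, Vegfd, and 0 higher. Over all genes the same test called 3.29% lower and 2.35% higher. At an unadjusted p of at most 0.05, 3 members were lower (Vegfd, Vegfa and Kdr) and 0 higher, against 13.2% and 12.1% of all genes. The members' median difference was −0.32 on the log2 scale, and that of all genes was 0.01.

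Vegfd, a ligand of VEGFR3, was the most abundant ligand per length on soft matrix. It stood at 319.6 CPM in soft, 366 CPM in soft with A83-01, 73.0 CPM in stiff and 115 CPM in stiff with A83-01. Both stiff libraries were far below both soft libraries, and each inhibited library was above its untreated one. The stiff library was 4.38-fold lower than soft (4.18 to 4.59), and with A83-01 in both the difference was 3.19-fold (3.08 to 3.31). In the additive edgeR quasi-likelihood test Vegfd fell by 1.90 (log2, SE 0.186, Benjamini-Hochberg adjusted p = 0.0157). Without the inhibitor term in the model the adjusted p was 0.0965.

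Vegfa stood at 336 CPM in soft, 282 CPM in soft with A83-01, 159 CPM in stiff and 50.4 CPM in stiff with A83-01. Its levels were ordered the same way on either matrix, with the inhibited library the lower, and no stiff library reached a soft one. It was 2.12-fold lower in stiff than soft (2.05 to 2.20) and 5.59-fold lower with A83-01 in both (5.32 to 5.89). The fitted stiffness difference was −1.78 on the log2 scale (SE 0.367) and did not pass the edgeR quasi-likelihood test (Benjamini-Hochberg adjusted p = 0.0664). Over the alternatives that adjusted p ran from 2.56e-08 with total-count scaling to 0.263 without the inhibitor in the model, and it was also past the threshold in DESeq2 (1.63e-06), in limma-voom (0.0370) and without a filter on low counts (0.0477).

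Pgf, which encodes a ligand of VEGFR1 and NRP1, stood at 44.2 CPM in soft, 53.1 CPM in soft with A83-01, 38.3 CPM in stiff and 81.9 CPM in stiff with A83-01. The highest and the lowest library were both on stiff matrix, so the groups overlap by stiffness. Without inhibitor the stiff library was 1.16-fold lower (1.07 to 1.25), and with it the stiff library was 1.54-fold higher (1.45 to 1.64).

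Vegfb and Vegfc varied least among the ligands. Vegfb, whose product binds VEGFR1, stood at 31.8 CPM in soft, 47.5 CPM in soft with A83-01, 30.9 CPM in stiff and 37.0 CPM in stiff with A83-01. Its stiff and soft libraries without inhibitor differed by 1.03-fold, within counting error (0.943 to 1.13). Vegfc, the lymphangiogenic ligand of VEGFR3, stood at 17.5, 21.1, 14.7 and 13.7 CPM in the same order. It was 1.19-fold lower in stiff than soft (1.05 to 1.36) and 1.54-fold lower with A83-01 in both (1.37 to 1.73). The additive test called neither on stiffness (edgeR quasi-likelihood, adjusted p = 0.454 for Vegfb and 0.203 for Vegfc).

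The order of the ligands by FPKM, the authors' value per transcript length and library size, differed between libraries. In soft, Vegfd (90.3 FPKM) and Vegfa (81.4 FPKM) were 1.11-fold apart and made up 41.6% and 37.5% of the summed ligand FPKM. In soft with A83-01, Vegfd led with 103 FPKM and Vegfa followed with 67.9 FPKM. In stiff, Vegfa led with 32.6 FPKM, and Vegfd (17.4 FPKM) and Pgf (17.2 FPKM) were 1.01-fold apart. In stiff with A83-01, Pgf led with 45.2 FPKM, followed by Vegfd at 33.7, Vegfb at 17.9 and Vegfa at 12.7 FPKM. Vegfa thus made up 37.5% of ligand FPKM in soft, 29.6% in soft with A83-01, 38.7% in stiff and 11.0% in stiff with A83-01. Vegfc was last in each library. The summed ligand FPKM was 217 in soft, 229 in soft with A83-01, 84.1 in stiff and 115 in stiff with A83-01. FPKM does not carry the TMM factor, which raises the stiff library relative to the rest.

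**Figure D2:**
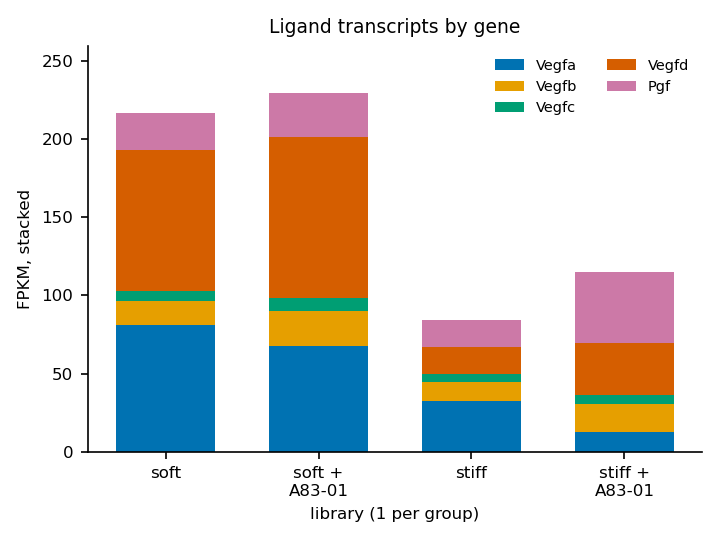
Summed FPKM of the 5 ligand genes in each of the 4 libraries, stacked by gene, 1 library per bar and no error. The bar for stiff matrix reaches 84.1 FPKM against 217 for soft, and in stiff with A83-01 the Pgf share (39.3%) exceeds the Vegfa share (11.0%).

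Kdr, the gene for VEGFR2, stood at 210.2 CPM in soft, 248 CPM in soft with A83-01, 106 CPM in stiff and 157 CPM in stiff with A83-01. Both stiff libraries lay below both soft libraries. The stiff library was 1.99-fold lower than soft (1.91 to 2.07), just short of the 2-fold rule that Vegfa passed and past it with total-count scaling (log2 −1.23), and 1.58-fold lower with A83-01 in both (1.53 to 1.64). The additive difference was −0.83 on the log2 scale (SE 0.161), with an adjusted p of 0.0593 in edgeR's quasi-likelihood test. That p ran from 0.00122 with total-count scaling to 0.213 without the inhibitor in the model, and DESeq2 (0.00349) and limma-voom (0.0400) also placed it past the threshold.

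Flt1 and Flt4 differed less. Flt1 stood at 79.3 CPM in soft, 86.6 CPM in soft with A83-01, 63.1 CPM in stiff and 80.4 CPM in stiff with A83-01. Flt4 stood at 36.4 CPM in soft, 38.7 CPM in soft with A83-01, 31.2 CPM in stiff and 44.2 CPM in stiff with A83-01. For both genes stiff without inhibitor was the lowest library, and stiff and soft overlapped once the inhibited libraries were counted. In stiff against soft, Flt1 was 1.26-fold lower (1.18 to 1.33) and Flt4 1.16-fold lower (1.07 to 1.27). Neither passed edgeR's quasi-likelihood test (adjusted p = 0.366 and 0.974). Loci of Flt1, Vegfd, Nrp1 and Nrp2 overlap pseudogenes or noncoding RNA genes in RefSeq, which have no entry of their own in the count table, and reads of overlapping genes may not have been separated. The counts do not separate the soluble form of VEGFR1 from the membrane form.

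Nrp1, which partners VEGFR2 and plexins, stood at 261 CPM in soft, 218 CPM in soft with A83-01, 255 CPM in stiff and 272 CPM in stiff with A83-01, a range of 1.25-fold and the narrowest of the 10 members. Nrp2, which partners VEGFR3, stood at 177 CPM in soft and in soft with A83-01, 155 CPM in stiff and 113 CPM in stiff with A83-01. Nrp2 was 1.14-fold lower in stiff than soft (1.10 to 1.19) and 1.56-fold lower with A83-01 in both (1.5 to 1.6). Neither passed edgeR's quasi-likelihood test on stiffness (adjusted p = 0.645 for Nrp1 and 0.221 for Nrp2). By FPKM, Nrp1 led the receptors in soft (40.0), stiff (32.4) and stiff with A83-01 (43.6), while Kdr led in soft with A83-01, 1.09-fold above Nrp1. Flt4 was last of the receptors in each library, at 3.83 to 6.67 FPKM.

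**Figure D3:**
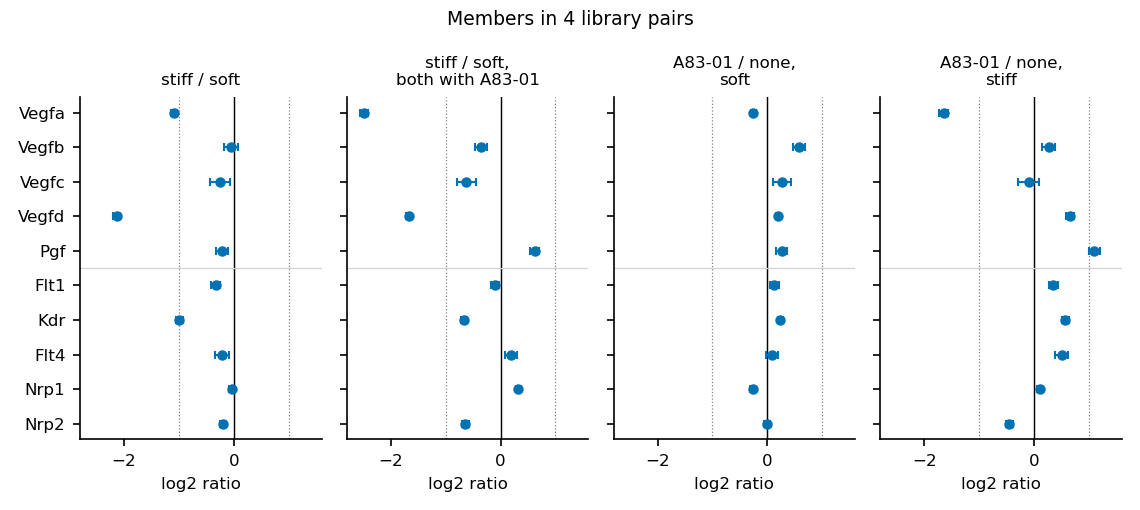
Log2 ratios of the 10 members in the 4 library pairs, with 95% counting intervals; the solid line marks no difference and dotted lines mark 2-fold. All 10 points of stiff against soft lie at or left of 0, and in the A83-01 pair on stiff matrix Vegfa (−1.65) and Pgf (1.10) lie furthest apart.

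The stiff library with A83-01 held more Pgf and less Vegfa than the stiff library without it. In stiff with A83-01 against stiff, 1 member was at least 2-fold higher (Pgf, 2.14-fold, 2.0 to 2.3) and 1 at least 2-fold lower (Vegfa, 3.14-fold, 2.98 to 3.32). Over all genes 7.8% were higher and 4.47% lower by that rule. Vegfd was 1.57-fold higher (1.49 to 1.66), Kdr 1.48-fold higher (1.42 to 1.55), Flt4 1.42-fold higher (1.30 to 1.54), Flt1 1.27-fold higher (1.20 to 1.35) and Nrp2 1.37-fold lower (1.31 to 1.43). Vegfb was 1.20-fold higher (1.10 to 1.31) and Nrp1 1.07-fold higher (1.04 to 1.10). Vegfc did not differ beyond counting error, at 1.07-fold lower (0.938 to 1.22), and lay above 0 with total-count scaling (log2 0.18). Of these directions it was the sole one that changed with scaling.

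On soft matrix 0 members passed 2-fold in either direction, where 2.18% of all genes were higher and 2.44% lower. The furthest was Vegfb, 1.49-fold higher (1.38 to 1.61) with A83-01. Vegfa was 1.19-fold lower (1.16 to 1.23) and Nrp1 1.20-fold lower (1.16 to 1.24), while Vegfc, Pgf, Kdr, Vegfd and Flt1 were 1.20-, 1.20-, 1.18-, 1.15- and 1.09-fold higher. Flt4 and Nrp2 did not differ beyond counting error, and the sign of Nrp2 (log2 0.00) turned with total-count scaling and with DESeq2's size factors.

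Set beside each other, the A83-01 log2 ratios of Vegfa were −1.65 on stiff and −0.25 on soft matrix, a difference of −1.40 (counting interval −1.49 to −1.31). Of all genes, 1.83% lay at least as far in that direction. For Pgf they were 1.10 and 0.26, a difference of 0.83 (0.69 to 0.97), with 9.4% of genes at least as far. The difference was −0.45 for Nrp2, −0.37 for Vegfc and −0.32 for Vegfb, and between 0.22 and 0.46 for Vegfd, Flt1, Kdr, Flt4 and Nrp1. With 1 library an arm these differences were not tested.

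Over all 4 libraries edgeR's quasi-likelihood test of the inhibitor called 0 of 10 members higher and 0 lower with adjustment, against 0% and 0.044% of all genes. At an unadjusted p of at most 0.05, 2 members were higher (Vegfb and Pgf) and 1 lower (Vegfa), against 7.25% and 6.04% of all genes. DESeq2 called 0 members, with 1.64% of all genes higher and 1.76% lower, and limma-voom called 0 members, with 0% and 0.022%. The edgeR estimates for Vegfa and Pgf were −0.95 (SE 0.361) and 0.68 (SE 0.229) on the log2 scale, with adjusted p = 0.371 and 0.332. With total-count scaling both passed (adjusted p = 0.0193 and 0.0232 in edgeR).

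The receptors were set against endothelial marker genes measured in the same libraries. In bulk RNA, fewer cells of a type and less RNA per cell cannot be told apart. The 14 endothelial markers in the table, none of them a member, summed to 1938 CPM in soft, 1914 CPM in soft with A83-01, 1681 CPM in stiff and 3007 CPM in stiff with A83-01. Of the 14, edgeR's quasi-likelihood test called 0 higher and 2 lower on stiff matrix, the coagulation factor gene Vwf (−1.69, SE 0.197) and the diaphragm protein gene Plvap (−1.13, SE 0.148). Kdr counts were 10.8% of the summed marker counts in soft, 13% in soft with A83-01, 6.29% in stiff and 5.21% in stiff with A83-01. By this ratio Kdr was 1.72-fold lower in stiff than soft (1.65 to 1.80) and 2.49-fold lower with A83-01 in both (2.40 to 2.58).

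The A83-01 direction of the receptors on stiff matrix turned when they were divided by the summed markers, in which Cdh5 is the largest, but not against each marker. Kdr, Flt1 and Flt4 were each higher in CPM with the inhibitor, but per marker count Kdr was 1.21-fold lower (1.15 to 1.26), Flt1 1.41-fold lower (1.32 to 1.49) and Flt4 1.26-fold lower (1.16 to 1.37). Flt1 stood at 4.09% and 4.52% of marker counts on soft matrix without and with A83-01, and at 3.76% and 2.67% on stiff. Flt4 stood at 1.88% and 2.02% on soft and at 1.86% and 1.47% on stiff, and its stiff against soft ratio without inhibitor did not differ beyond counting error (0.926 to 1.10). With the 14 markers taken singly, on stiff matrix with A83-01 Kdr and Flt4 were lower against 10 markers and higher against 4 (Vwf, Plvap, Esam and Ecscr), and Flt1 was lower against 11 and higher against 3. In stiff against soft without inhibitor Kdr was lower against 13 of the 14, Vwf being the exception. With Cdh5 alone as the denominator, Kdr was 1.67-fold lower in stiff than soft and 1.23-fold lower with A83-01 on stiff.

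**Figure D4:**
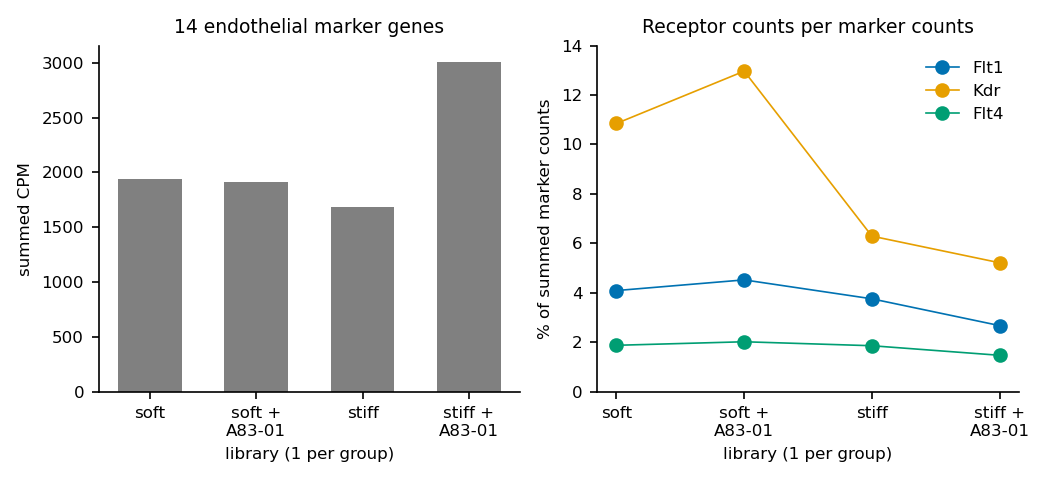
Left, summed CPM of 14 endothelial marker genes in each library; right, counts of Flt1, Kdr and Flt4 as a percentage of the summed marker counts, 1 library per point and no error drawn. The marker sum is highest in stiff with A83-01 (3007 CPM), where the 3 receptor percentages are lowest (Kdr 5.21%).

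Markers of other cells moved with matrix as well, and their part in the ligand differences was not tested. Of 7 fibroblast markers, 2 fell on stiff matrix in edgeR's quasi-likelihood test, Pdgfra and Dcn, and 0 rose. Pdgfra stood at 1054 and 931 CPM on soft matrix without and with A83-01, and at 198 and 241 CPM on stiff matrix. The list summed to 54336 and 43226 CPM on soft and 73961 and 27431 CPM on stiff matrix, of which Col1a1 alone made up 40.7% to 93.9%. Without Col1a1 the sums were 15084 and 25649 CPM on soft and 4486 and 8353 CPM on stiff matrix. Of 10 pericyte and mural markers 5 rose (Myh11, Tagln, Des, Acta2 and Rgs5) and 0 fell. The list summed to 2385 and 1731 CPM on soft and 9416 and 7881 CPM on stiff matrix. Within these sums Acta2 stood at 271 and 88.9 CPM on soft and at 3691 and 2428 CPM on stiff matrix. Tagln stood at 130 and 38.3 CPM on soft and at 2101 and 1126 CPM on stiff matrix. Pdgfrb, Cspg4, Kcnj8, Abcc9 and Notch3 were not called, with Pdgfrb at 1239 and 881 CPM on soft and 1591 and 1470 CPM on stiff matrix. Of 7 leukocyte markers 1 rose (Lyz2) and 2 fell, Adgre1 (24.5 CPM in soft, 0.447 in stiff) and Cd74 (no counts in stiff). That list summed to 100.4 and 144 CPM on soft and 68.8 and 68.0 CPM on stiff matrix. Of 4 listed lymphatic endothelial markers past the minimum 1 fell, podoplanin (Pdpn). Pdpn stood at 195 and 397 CPM on soft and at 89.0 and 106 CPM on stiff matrix. The lymphatic regulator Prox1 stayed between 0.585 and 1.14 CPM, and the cell source of Pdpn was not tested. Of 4 adipocyte markers 1 fell, Plin1, with the list at 15.6 to 35.5 CPM. The 1 keratinocyte gene past the minimum, Krt10, was not called.

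Oxygen-sensing genes control Vegfa in many tissues. The counts called in each pathway and marker list stand against 3.29% of all genes called lower and 2.35% called higher in the same test. Of 8 oxygen-sensing genes past the minimum 2 fell and 0 rose on stiff matrix in the edgeR quasi-likelihood test, adjusted by Benjamini-Hochberg. Hif1a, the inducible subunit of the hypoxia factor, stood at 609 and 574 CPM on soft matrix without and with A83-01 and at 206 and 236 CPM on stiff, and fell by 1.43 (log2, SE 0.180, adjusted p = 0.0253). Egln3, a prolyl hydroxylase induced by low oxygen, fell by 2.70 (SE 0.248). The endothelial paralog Epas1 did not pass, with a log2 difference of −0.60 (SE 0.177). Of 11 hypoxia-induced genes 4 fell and 0 rose: Bnip3 (−1.78), Pfkfb3 (−1.34), Pdk1 (−0.98) and Kdm3a (−0.77). The median difference of the 11 was −0.92, against 0.01 over all genes. In stiff with A83-01 against stiff, where Vegfa was 3.14-fold lower, these lists were mixed. The median log2 ratio was −0.36 for the hypoxia-induced genes and 0.18 for the oxygen-sensing genes. Of the 11, 1 was at least 2-fold higher (Adm, log2 2.88) and 1 at least 2-fold lower (P4ha1, log2 −1.23), against 7.8% and 4.47% of all genes. The log2 ratio of Hif1a was 0.20. Whether the difference in Vegfa is tied to these genes was not tested.

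Of 12 genes that VEGF induces in endothelium, 2 fell on stiff matrix and 0 rose in edgeR's quasi-likelihood test. These were the nuclear receptor gene Nr4a1 (−3.05, SE 0.281) and the tip cell proteoglycan gene Esm1 (−1.16, SE 0.134). The list median was −0.44. F3 (1.02, SE 0.237), Egr3, Cxcr4 and Angpt2 lay above 0 and were not called. In stiff against soft with A83-01 in both libraries the median log2 ratio of the list was −0.17. Esm1 stood at 71.2 and 33.4 CPM on soft matrix without and with A83-01 and at 31.8 and 15.0 CPM on stiff. Of 25 signal transduction genes past the minimum, 1 rose, the focal adhesion kinase gene Ptk2 (0.73, SE 0.122), and 0 fell, a share near that of all genes called higher (2.35%), with a list median of 0.10.

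VEGF-C and VEGF-D gain receptor affinity when their precursors are cleaved. Of 7 genes of that maturation past the minimum, 1 rose and 1 fell in edgeR's quasi-likelihood test. Adamts3, the protease that cleaves the VEGF-C precursor, had 449 and 153 counts on soft matrix without and with A83-01 and 78 and 12 on stiff, and fell by 2.88 (log2, SE 0.411, adjusted p = 0.0313). Ccbe1, the secreted cofactor of that cleavage, had 186 and 42 counts on soft and 384 and 175 on stiff matrix, and rose by 1.57 (SE 0.274, adjusted p = 0.0476). Among 11 neuropilin partners 1 fell, the plexin gene Plxna3 (−1.09, SE 0.166). Among 11 receptor phosphatases and membrane partners Dusp1, a phosphatase of MAP kinases, rose (0.93, SE 0.133) and the endocytic receptor gene Lrp1 fell (−1.61, SE 0.261). The inhibitor test called no gene of any pathway or marker list in edgeR.

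**Figure D5:**
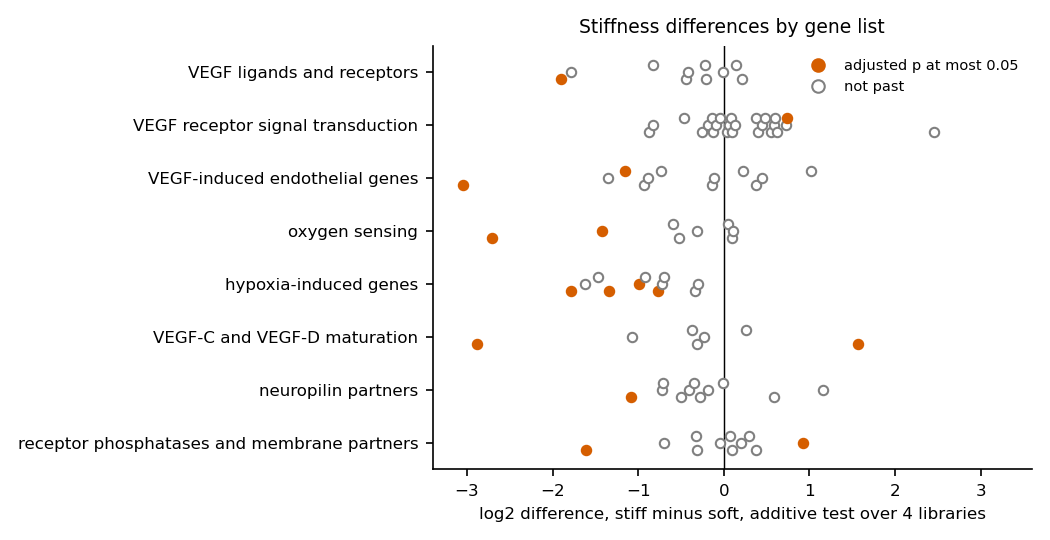
Log2 differences of stiff minus soft in the additive test over 4 libraries, for the 10 members and the 7 pathway lists; each point is a gene, and filled points have an adjusted p of at most 0.05. Vegfd is the filled member, at −1.90, and the 11 hypoxia-induced genes all lie left of 0, 4 of them filled.

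Genes with the most similar profiles over the 4 libraries were sought among 9033 others with a mean of at least 10 CPM, by the largest difference between centred log2 CPM values. Closest to Vegfa were LOC102552640 (0.04), Tmem45a (0.12) and Clmp (0.17). Closest to Vegfd were Arrdc3 (0.08), Cd302 (0.11) and Birc3 (0.14), and closest to Kdr were Lrp11 (0.04), Fcer1g (0.07) and Arhgdib (0.08). With 4 points many genes fit a profile closely, so this describes likeness only.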

How the data were processed

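RNA of 4 libraries, 1 per group, was sequenced in pairs after poly(A) selection, per the labels' protocols, which mention neither molecular identifiers nor a strand-marking step. The authors deposited raw read counts per gene and a separate table of FPKM values. Per the submitters' processing notes, HISAT2 and edgeR were used with build Rnor_6.0. The counter, annotation and versions were not given in the sources used here. Counts were scaled by TMM, and genes with at least 1 CPM in at least 1 library were kept. Pair ratios used a prior count of 2 and 95% Clopper-Pearson intervals of the count ratio. Tests used edgeR 4.0.16 quasi-likelihood fits of stiffness plus inhibitor in R 4.3.3, adjusted at 0.05 over all genes. DESeq2 1.42.0 and limma 3.58.1 voom served as alternatives. Only the edgeR fit was tried on simulated data. Intervals cover counting error only.

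The members, lists, comparisons and the rule for named genes were chosen with earlier results of these data known. That rule named all members, up to 4 genes per list that passed a test (by adjusted p), and for Vegfa, Vegfd and Kdr the 3 genes nearest in profile. Further genes named to complete a description were chosen after their values were seen. A planned comparison of protein sequences was not made.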

Additional observations from a re-analysis of the deposited data

Results flagged for a closer look

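For 3 members the counting intervals excluded equality in opposite directions in parallel library pairs. The difference was not tested, since each arm is 1 library. How many of all genes meet the same rule was not counted. In a single pair, between 24.9% and 33.6% of all genes were lower beyond counting error. Nrp1 had an A83-01 log2 ratio of −0.27 on soft and 0.10 on stiff matrix. Pgf had a stiff against soft log2 ratio of −0.21 without and 0.62 with the inhibitor. Flt4 had −0.22 without and 0.19 with the inhibitor.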

How the results depend on the processing

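No paired analysis was possible because each group has 1 library and the labels number no replicates. The additive fit already holds the other factor, and leaving out a replicate does not apply. The median of all genes shifted by −0.23 (stiff against soft) with total-count scaling and to 0.31 (A83-01 on stiff matrix), where the split of called genes was 522 higher and 1613 lower, and 1667 higher and 392 lower. In the stiffness test over all genes the main count of 769 became 1757 with total-count scaling, 1306 with DESeq2 and 30 without the inhibitor term. The members called there went from 1 to 3 with total-count scaling, DESeq2 or limma-voom, 2 without a filter on low counts and 0 without the inhibitor term. In the inhibitor test over all genes the count of 6 became 834 with total-count scaling, 463 with DESeq2, 27 without a filter, 3 with limma-voom, and 0 with DESeq2's size factors or without the stiffness term. The members called there were 2 with total-count scaling and 0 otherwise. Without a filter the A83-01 pair on soft matrix had 1064 genes past 2-fold in place of 629. Signs turned in the tests for Flt4 on stiffness without the inhibitor term (log2 0.0094) and Nrp1 on the inhibitor with total-count scaling (log2 0.063). A further 48 alternative counts stayed within 1.5 times their main value. Of the pair ratios and receptor ratios, 49 values moved beyond their counting interval, most of them with total-count scaling or FPKM (the use of single markers as denominators was chosen after seeing the data), and among these the direction turned for Vegfc with A83-01 on stiff matrix (0.18 and 0.19). The cause of these shifts was not tested. Members had 427 counts or more in each library.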
